A study of Mus musculus with 6 samples.

Results

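In 1 of 6 single mouse blastocysts, the embryo Dep 1, a set of genes that every other embryo expressed had no reads at all. They were chosen by their measured values: 0 reads in Dep 1, reads in each of the other 5 embryos, and a mean of at least 100 normalized counts over those 5. Of 12149 genes in the table, 9681 had such a mean, and 132 of them (1.36%) were empty in Dep 1 only. Of these, 19 were left out by name, among them Sox17, Sox7, Fgf4 and families such as the solute carriers and the Zfp zinc fingers. The remaining 113 genes are described here. A symbol was found for 108, and 102 are annotated as protein-coding. The other 5 carry an identifier alone, with means between 103.7 and 213. The 0 in Dep 1 and the minimum mean are the rule itself, so they are given as a description without a test.

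The study asked whether small RNAs of sperm from stressed fathers change the RNA of the embryo. Zygotes of the C57BL/6 strain were injected with sperm small RNAs (sRNAs) at 2 ng/µl. In the control group (Ctl 1, Ctl 2 and Ctl 3) the small RNAs came from normal males, and in the other group (Dep 1, Dep 2 and Dep 3) from males made depressive by stress. Embryos were grown in M16 and then KSOM medium and collected as blastocysts (E3.5) about 96 h after injection, and each library holds the RNA of 1 whole embryo. All 6 embryos were thus injected, and the labels do not say which share parents, donor males or an injection day, so p-values measure only the spread between these embryos.

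A blastocyst has an outer trophectoderm, the source of the placenta, around an inner cell mass. The inner cell mass sorts into epiblast, the source of the fetus, and primitive endoderm, which lines the yolk sac and lays down basement membrane. Fibroblast growth factor from the epiblast acts through receptor tyrosine kinases and the ERK kinases to favour primitive endoderm, and the Sprouty and Spred proteins are feedback inhibitors of that pathway. In RNA of a whole embryo, fewer cells of a type and less RNA per cell cannot be told apart.

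Between 16543356 and 21548220 reads fell in listed genes per library, with 17213406 in Dep 1, the second lowest. Dep 1 stood apart from the rest: 691 of the 12149 genes (5.69%) had 0 reads there, against 5 to 106 genes in the other 5 libraries. Some markers of the blastocyst were present in all 6. Pou5f1 of the inner cell mass lay between 1977 and 4256 normalized counts, Cdx2 of the trophectoderm between 1725 and 3795, and Gata6 of the early primitive endoderm between 3069 and 6782. Other markers of primitive endoderm were not: Gata4 had 0 reads in Dep 1 and Ctl 3, and Sox17 and Sox7 had 0 in Dep 1. Ctl 3 was low for both as well, with 0.883 normalized counts of Sox17, which is 1 read, and 9.71 of Sox7. The remaining embryos had 115 to 582 of Sox17 and 84.3 to 265 of Sox7. Before the exclusions by name, the rule gave 132 genes for Dep 1. Counted in the same way with another embryo in the place of Dep 1, 10 genes were empty in Ctl 1 only, 5 in Ctl 3 only, 2 in Dep 3 only, and 0 in Ctl 2 or Dep 2 only. The 10 of Ctl 1 include the Y-linked genes Eif2s3y, Kdm5d and Usp9y.

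The promoters of 6 genes are shown because a chromosomal cluster of near-identical genes was empty as a block in Dep 1, and because Plk2 and Wdr35 had the highest levels elsewhere. Fthl17f, Fthl17-ps1 and Fthl17e lie side by side on the X chromosome and encode, or are copies of genes for, proteins like the ferritin heavy chain. Fthl17f and Fthl17-ps1 are members, Fthl17e was also at 0 but had a mean of 89.0, and Fthl17a, elsewhere on the X, had reads in Dep 1. Each stretch has 116 bases, reads 5′ to 3′ on the gene's own strand and comes from RefSeq promoters on GRCm38.p6. Capitals mark the TATA box sequence TATAAA, the CCAAT box (which reads ATTGG on the other strand) and the GC box sequence GGGCGG (which reads CCGCCC on the other strand). The first 3 stretches are placed around TATAAA, the others end at the RefSeq start. Their places are chrX:9062879-9062994, chrX:9043430-9043545, chrX:9033342-9033457, chrX:85249561-85249676, chr13:110394928-110395043 and chr12:8973885-8974000, all on the plus strand.
Fthl17f: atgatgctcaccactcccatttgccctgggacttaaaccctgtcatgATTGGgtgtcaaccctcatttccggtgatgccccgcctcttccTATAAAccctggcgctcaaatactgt
Fthl17-ps1: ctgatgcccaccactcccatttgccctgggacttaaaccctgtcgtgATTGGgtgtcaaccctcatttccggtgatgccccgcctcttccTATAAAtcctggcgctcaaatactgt
Fthl17e: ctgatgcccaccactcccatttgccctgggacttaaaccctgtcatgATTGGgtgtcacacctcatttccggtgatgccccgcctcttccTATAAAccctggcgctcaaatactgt
Fthl17a: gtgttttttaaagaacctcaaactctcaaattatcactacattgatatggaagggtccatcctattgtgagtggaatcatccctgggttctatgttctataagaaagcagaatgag
Plk2: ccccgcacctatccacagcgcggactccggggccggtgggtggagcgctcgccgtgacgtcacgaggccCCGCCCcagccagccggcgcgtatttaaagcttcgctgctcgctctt
Wdr35: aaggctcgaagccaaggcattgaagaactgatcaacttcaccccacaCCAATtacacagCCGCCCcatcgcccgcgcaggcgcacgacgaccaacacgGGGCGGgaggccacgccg

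Each pair among the 3 clustered Fthl17 stretches was identical at 112 of 116 bases (96.6%). Against the whole 300-base promoter of Fthl17a the longest shared run was 7 bases. A promoter of 250 bases before to 50 after the start was found for 86 members. On either strand, TATAAA was in 10 of these (11.6%), against 6.11% of 7531 promoters of listed genes with a mean of at least 100 and 13.6% of all 32851 promoters. GGGCGG, the GC box, was in 67.4% of the members' promoters, against 68% and 35.7%. CCAAT was in 33.7%, against 39.6% and 37.4%, and CACGTG, the E-box, in 6.98%, against 10.7% and 7.15%. AGATAA, a site for GATA factors, was in 8.14%, against 5.9% and 11.2%. The median ratio of observed to expected CpG was 0.682 in the members, 0.799 in the listed genes and 0.384 in all promoters. These shares describe letters in a window and no motif search was tested.

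Most members stood close to the lower limit of the rule. Their mean over the other 5 embryos had a median of 139 normalized counts, with 26 members at 200 or more and 87 below. Just inside the limit were Ric8b (102.4), Nsun4 (102.3), C1ql4 (102.2), Trim40 (101.6) and Gm12594 (101.3), and just outside, also at 0 in Dep 1, Akap11 (99.1), Pde8b (98.6), Enpp3, Stk10 and ENSMUSG00000090998 (97.6 each). Outside the rule by 1 read in Dep 1 were Trim44 (mean 470.1), the imprinted noncoding RNA Meg3 (339.9), Nudt11 (336), Gna15 (332) and Acp6 (260.2). Among 9669 genes with that minimum mean and reads in each of the other 5 embryos, Dep 1 had 0 reads for 132 genes, 1 read for 30, 2 for 17, 3 for 10, 4 to 10 for 82, 11 to 50 for 398 and more for 9000. Genes at 0 are thus more frequent in Dep 1 than genes at 1, 2 or 3 reads. A count of 0 allows up to 3 reads, which is 3.64 normalized counts in Dep 1, and folds below use that floor, which covers counting error only.

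**Figure D1:**
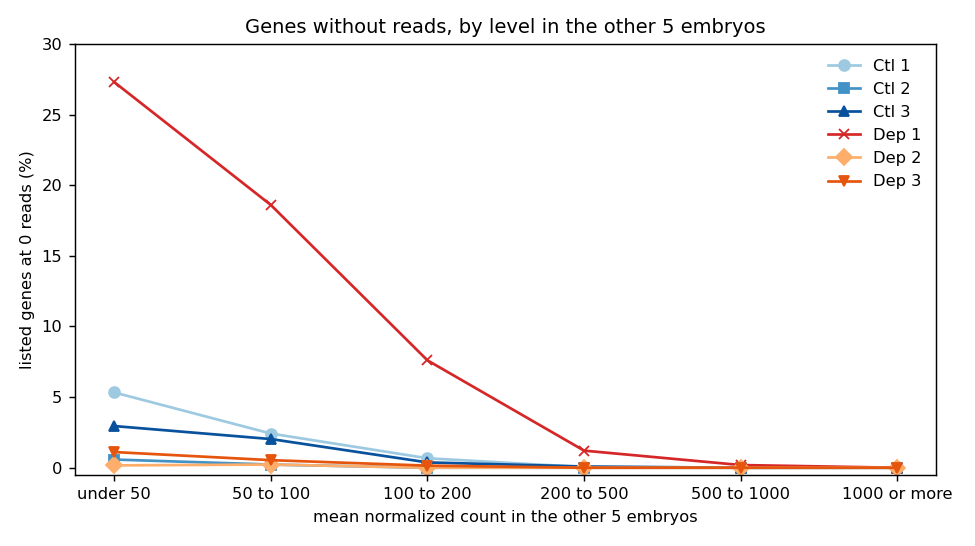
Share of listed genes with 0 reads in each embryo (y axis, percent), by the mean normalized count of the gene in the other 5 embryos (x axis, 6 classes). Each line is 1 embryo: Dep 1 falls from 27.3% of genes under 50 to 7.6% between 100 and 200 and 1.21% between 200 and 500, and Ctl 1, the next highest, from 5.33% to 0.67% and 0.0426%.

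The share of empty genes in Dep 1 fell with the level of the gene elsewhere, as the plot of shares by level shows. Between 100 and 200 normalized counts 102 of 1342 genes were at 0, between 200 and 500 29 of 2406, between 500 and 1000 4 of 2100, and at 1000 or more 0 of 3833. Ctl 1 had 9 of 1344, 1 of 2349, 0 of 2086 and 1 of 3866 in the same classes. The members were also more variable than 5111 genes of the same range of means that had reads in Dep 1. Their coefficient of variation over the other 5 embryos, the SD divided by the mean, had a median of 46.9%, against 33.2% for those genes. In 76 members (67.3%) all 5 embryos had at least 50 normalized counts, against 94% of the comparison genes, whose median mean was 351. Exonic length was alike, with medians of 4652 and 4557 bases. Whether level, variability or the quality of the RNA in Dep 1 has a part in the zeros was not tested.

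**Figure D2:**
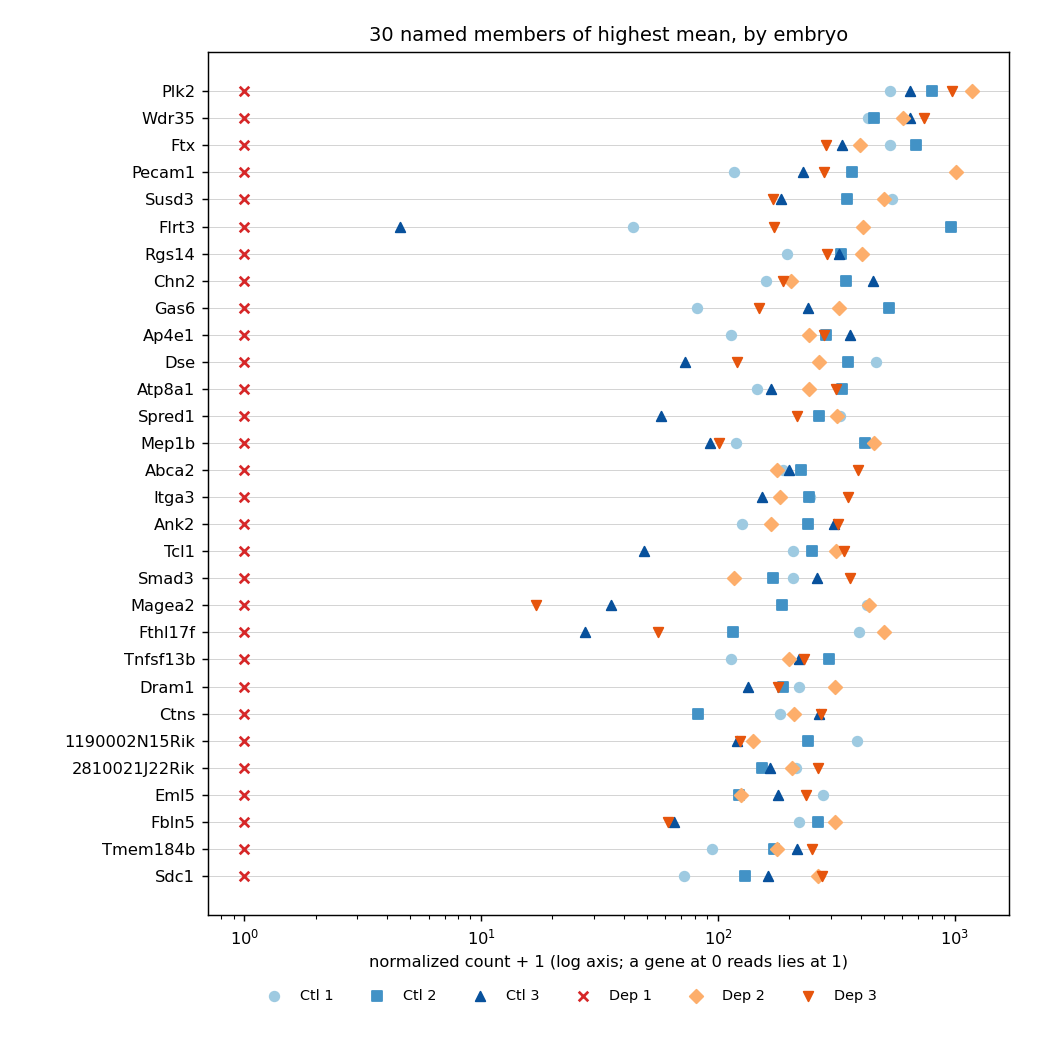
Normalized count + 1 (log axis) of the 30 members with a symbol and the highest means, 1 row per gene and 1 point per embryo. Crosses for Dep 1 lie at 1, which is 0 reads; points of the other 5 embryos lie close together for Wdr35, from 430 to 739, and far apart for Flrt3, from 3.53 to 960.2.

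Signalling genes were the largest group, with 35 of the 113 members and means from 102.2 to 827. Plk2, a polo-like kinase that is induced by p53 and takes part in centriole duplication, led all members. Of the Ctl embryos, number 1 had 534 normalized counts, number 2 had 800 and number 3 had 644, while Dep 2 reached 1186 and Dep 3 971. Values below come in that same order of embryos, from Ctl 1 to Dep 3. Its level in Dep 1 was at least 227-fold lower than the mean of the 5, and at that mean 681 reads would have been counted there. Both other Dep embryos lay above all 3 Ctl embryos. The gene (ENSMUSG00000021701) spans 110395046 to 110400844 on chromosome 13 of GRCm38 and has 9 exons.

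Regulators of receptor tyrosine kinase signalling and its ligands were among the signalling members. Fgf10, a secreted ligand of the FGF receptors, had 159.8, 195, 41.5, 165 and 101 normalized counts. Spry1, of the Sprouty inhibitors, had 146, 151, 52.1, 157 and 115, and Spred1, which restrains Ras, had 328, 267, 56.5, 318 and 214. Gas6, the ligand of the receptors Tyro3, Axl and Mertk, had 80.5, 527, 239, 323 and 147.5. Nrg2, a neuregulin that binds ErbB receptors, had 42.6, 197, 7.06, 208.5 and 212. Ctl 3 was the lowest of the 5 embryos for Fgf10, Spry1, Spred1 and Nrg2, and Ctl 1 for Gas6. At the floor, Dep 1 was at least 36.4-fold lower than the mean of the other 5 for Fgf10, 34.1-fold for Spry1, 65.0-fold for Spred1 and 72.3-fold for Gas6.

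Other signalling members act downstream of surface receptors. Smad3, which carries signals of TGF-beta, activin and Nodal to the nucleus, had 207, 169, 260.4, 116 and 361.5 normalized counts. Rgs14, a regulator of G protein signalling, was steadier, with 195, 329, 322, 404.2 and 286.5. Tcl1, a coactivator of AKT known from pluripotent cells, had 206, 249.6, 47.7, 313 and 338, again lowest in Ctl 3. Chn2, which turns off Rac, had 159, 346.5, 449, 203 and 188. Pth1r, the receptor of parathyroid hormone and its related protein, known from endoderm of the early embryo, had 42.6, 127, 101, 179 and 109.5. Dep 2 and Dep 3 lay above the 3 Ctl embryos for Tcl1, and the groups overlapped for the other 4 genes.

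Relatives of several members had reads in Dep 1; they were chosen after their values were seen. Smad2 and Smad4, partners of Smad3, had 972 and 1390 normalized counts there, Spred2 had 291, and the Gas6 receptor genes Tyro3 and Mertk had 528 and 461. Plk1 and Plk4 had 2309 and 1283 in Dep 1, above all other embryos, and Plk3 had 23.1, below the lowest other embryo at 138. Other feedback inhibitors of ERK signalling were low but present: Spry2 had 40.1 in Dep 1 and 173 to 404 elsewhere, and Dusp4 8.50 against 207 to 973. Dusp6, another ERK phosphatase, had 357, within the 310 to 663 of the others. Fgfr1 was the lowest of 6 at 418, against 693 to 1678.

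Members at the cell surface or in the matrix numbered 15, and their coefficient of variation had a median of 62.7%. Pecam1, an adhesion molecule of the immunoglobulin family that the inner cell mass also makes, had 116, 368, 227, 1009.9 and 281 normalized counts, Dep 2 standing above the others. Flrt3, a membrane protein that binds FGF receptors and other surface proteins, had 42.6, 960.2, 3.53, 409 and 171. Its coefficient of variation, 124%, was the highest of all members, and its value in Ctl 3 lay below the floor of Dep 1. So Flrt3 was near 0 in another embryo too. Itga3, the alpha chain of a laminin receptor, had 244, 241, 152, 182 and 352, and Sdc1, a heparan sulfate proteoglycan, had 71.0, 129, 162, 264 and 273. Itgb1, the beta chain that pairs with Itga3, had 1410 in Dep 1, against 1782 to 3249 in the others.

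The next 4 of the 15 surface and matrix members were lowest in the same embryos. Dse, which converts chondroitin to dermatan sulfate, had 462, 353, 71.5, 265 and 119 normalized counts, and Fbln5, a protein of elastic fibres, 219, 264, 64.4, 309.8 and 60.7. Susd3, a membrane protein with a sushi domain, had 543, 348, 183, 503.5 and 170.2, and Mep1b, a metalloprotease, had 118, 416, 91.8, 455 and 100.3. In all 4 genes Ctl 3 and Dep 3 were the lowest embryos, and the groups overlapped. Among the other members of this role, Hpse and Fetub were also lowest in these embryos. Sdc1 and Tmigd1 were instead lowest in Ctl 1, Pcdhgc4 in Ctl 2 and Tspan7 in Dep 2.

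Of 12 members of the cilium, cytoskeleton and motors, Wdr35 had the highest mean and little spread. Wdr35, a subunit of the complex that carries cargo back from the tip of the cilium, had 430, 454, 644, 603 and 739 normalized counts. That is 574 ± 131 (SD, n = 5) and a coefficient of variation of 22.7%, and Dep 1 was at least 158-fold lower than the mean. Wdr35 (ENSMUSG00000066643) has 27 exons over 8973892 to 9028847 on chromosome 12. Other subunits of that complex, chosen after their values were seen, had reads in Dep 1. Ift122 had 125, within the 48.9 to 130 of the other embryos, and Ift140 had 83.8, below their 185 to 343. Wdr19 had 54.6, above their 11.7 to 28.4, and Ift43 had 909, above their 357 to 485. Ank2, a membrane adaptor of the cytoskeleton, had 126, 238, 309, 167 and 319 in the 5 embryos, and Vim, the intermediate filament protein vimentin, 94.7, 326, 88.3, 157 and 99.4. Eml5, which resembles a microtubule-binding protein, had 277, 121, 178, 124 and 235.

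Members of membrane traffic and the lysosome numbered 10. Ap4e1, the epsilon subunit of the adaptor complex AP-4, had 112, 284, 359, 240.3 and 278 normalized counts. Reads of the other AP-4 subunits were found in Dep 1, with 483 for Ap4b1, 149 for Ap4m1 and 765 for Ap4s1. Atp8a1, a lipid flippase, had 146, 332, 167, 240.3 and 314, and Abca2, a lipid transporter of the lysosome, 187, 223, 199, 177 and 389. Dram1 and Ctns, proteins of the lysosomal membrane, had 219, 187, 132, 311 and 178, and 181, 81.0, 265, 207.5 and 272. The groups overlapped in these 5 genes, and no embryo was low in all of them.

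Metabolic members numbered 8 and held the steadiest gene of all. Acsl5, which activates long-chain fatty acids, had 159.8, 141, 161, 165 and 161 normalized counts. Its coefficient of variation was 5.94%, the lowest among the members, and Dep 1 was at least 43.2-fold lower than the mean. Smox, which oxidises spermine, had 18.1%, with 133, 193, 189.8, 143 and 142. Other acyl-CoA synthetase genes, chosen after their values were seen, were within the range of the other embryos or above it in Dep 1, from 155 for Acsl1 to 884 for Acsl6. Dgat2, an enzyme of triglyceride synthesis, had 26.0, 209, 40.6, 299.9 and 254, and its counterpart Dgat1 had 900 in Dep 1 against 658 to 1132 elsewhere. Exons of Acsl5 overlap those of Zdhhc6, and without strand the reads of both cannot be told apart. Overlap with another listed gene was found for 7 members.

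Regulators of transcription, RNA and protein homeostasis numbered 14, with means of at most 174. Nkx2-9, a homeobox gene, had 92.3, 109, 177, 261 and 233 normalized counts, and Rcor2, a corepressor that works with the demethylase LSD1, 49.7, 79.3, 103, 176 and 253. Lmo2, a LIM-domain protein known from blood development, had 213, 97.7, 209, 124 and 143. For Nkx2-9 and Rcor2 both Dep embryos with reads lay above the 3 Ctl embryos. Genes known from the germ line numbered 4: Magea2, Fthl17f, Tex14 and Tex15. Tex14, needed for the bridges between germ cells, had 375, 103, 95.3, 163 and 77.5. Other members among the 30 of highest mean were Tnfsf13b, a cytokine of the TNF family known as BAFF (mean 210.4), Tmem184b (180.5), 1190002N15Rik (201), 2810021J22Rik (199) and ENSMUSG00000086476 (213).

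Levels per transcript length were low for most members. FPKM, the reads scaled by exon length and by the total of reads in listed genes, had a median of 2.03 over the members, against 4.19 in the comparison genes. The comparison genes were not matched for level. Their mean normalized count had a median of 351, against 139 for the members, at alike exonic length. The members with the highest mean FPKM were Fthl17-ps1 (15.9), Gm6880 (14.5), Fthl17f (13.9), Gm12594 (11.3) and Plk2 (10.4), and the 4 above Plk2 have exons of 847 bases or fewer. Division of reads between near-identical copies is uncertain for the Fthl17 genes, Gstm7, H2-Q7, Magea2, Rasa4, Pcdhgc4 and Lgals7.

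The X chromosome held 10 members, 3.16% of its 316 genes with a mean of at least 100 and the highest share of any chromosome. It held 8.85% of the members and 3.37% of the comparison genes. Ftx, a noncoding RNA gene in the X inactivation centre, had 534, 685, 332, 397 and 285 normalized counts. Magea2 had 426, 186, 34.4, 434 and 16.01, and Rbm41, which encodes an RNA-binding protein, 285, 113, 22.1, 120.2 and 8.43. Rps6ka6, a kinase of the RSK family, varied less, with 156, 110.2, 238, 151 and 175. Of the 10, 4 were lowest in Dep 3, 2 each in Ctl 2, Ctl 3 and Dep 2, and 0 in Ctl 1. Xist, the RNA of the inactive X, was lowest in Dep 1 at 151, against 874 in Ctl 3 and 3784 to 10312 in Ctl 1, Ctl 2, Dep 2 and Dep 3. The Y-linked Ddx3y had 1424 in Dep 1. It was highest in Ctl 3 at 2202, near 0 in Ctl 1 at 1.18, and between these at 266 for Dep 2, 1141 for Dep 3 and 1159.7 for Ctl 2. Every library except Ctl 1 thus had reads of both Xist and Ddx3y above the floor, although each is labelled as 1 embryo. Among these, Xist was lowest in Dep 1 and then in Ctl 3. The part of sex in these zeros was not tested. The median of the 316 genes was 609 in Dep 1, within the 479 to 663 of the other embryos.

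**Figure D3:**
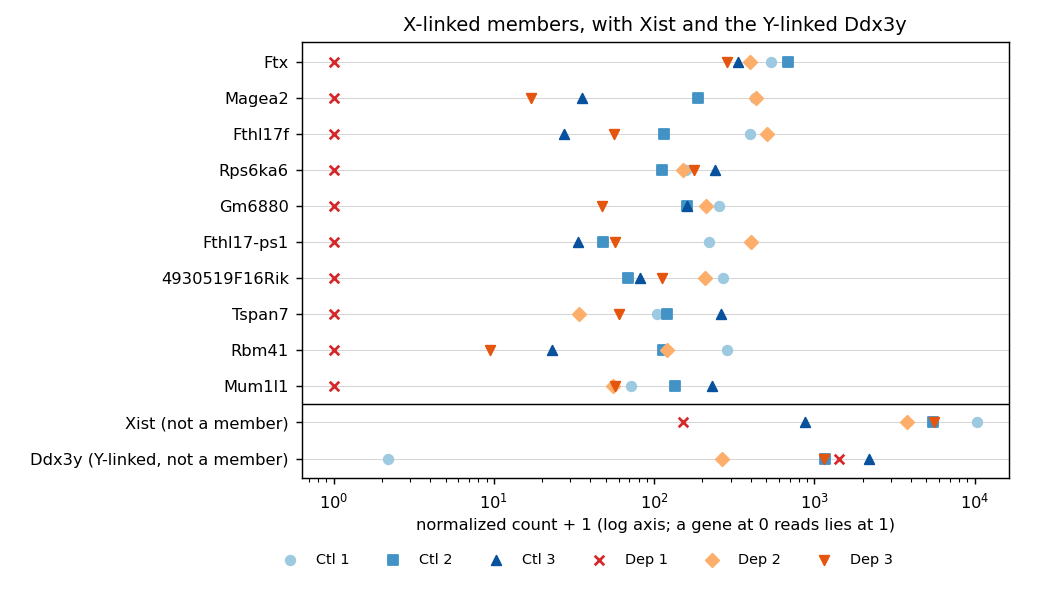
Normalized count + 1 (log axis) of the 10 X-linked members, with Xist and the Y-linked Ddx3y below the line, 1 point per embryo. Dep 1 lies at 1, that is 0 reads, for the 10 members and at the lowest value for Xist, while Ctl 1, with Ddx3y at 1.18, is the lowest embryo for none of the 10.

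The Fthl17 cluster shown above by its promoters lay between 9033493 and 9063861 on the X. Fthl17f had 393, 114, 26.5, 503.5 and 54.8 normalized counts. Fthl17-ps1, annotated as a pseudogene, had 218, 46.8, 32.7, 399 and 55.6, and Fthl17e 108, 60.1, 0.883, 228 and 48.0. All 3 were highest in Dep 2 and lowest in Ctl 3. Fthl17a, at 85249679 and with another promoter sequence, had 348 in Dep 1, more than in any other embryo (25.3 to 161). Elsewhere, Flrt3 lies within the span of Macrod2 on chromosome 2, on the other strand, and both are members. In all, 15 members (13.3%) had an adjacent listed gene that was also at 0 in Dep 1, against 10.5% of the comparison genes.

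Some members were also low in a single other embryo. In Ctl 3, 8 members (7.08%) were at or below 0.5 times the next lowest embryo, against 1.66% of the comparison genes: Flrt3, Spred1, Tcl1, Fthl17f, Nrg2, Fgf10, Spry1 and Ric8b. In Ctl 1 there were also 8, against 4.62%: Ap4e1, Pm20d1, Gpr180, Hip1r, Gstm7, Def6, Pth1r and the thrombin receptor gene F2r. Ctl 2 had 3 (2.65%, against 0.841%), Dep 3 had 3 (2.65%, against 1.25%) and Dep 2 had 1 (0.885%, against 1.7%). The comparison genes were not matched for level: their mean had a median of 351 normalized counts, against 139 for the members. Over the 29 measured primitive endoderm genes, the mean log2 level was 7.82 in Ctl 3 and 6.32 in Dep 1, against 8.56 in Ctl 1, 9.38 in Ctl 2, 9.49 in Dep 2 and 9.52 in Dep 3. Of the 29, 4 were lowest in Ctl 3 and 18 in Dep 1. Single genes of the list, chosen after their values were seen, differed. Gata4 had 0 reads in Ctl 3 and Dep 1 and 34.3 to 493 normalized counts elsewhere, Pdgfra 41.5 and 71.6 against 595 to 1615, and Gata6 6402 in Ctl 3, above Ctl 1, Ctl 2 and Dep 2. The part of primitive endoderm content in the low values of Ctl 3 was not tested.

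Lists of lineage genes describe Dep 1, the embryo that the rule used, and are given without a test. Over all genes, 5.69% were at 0 in Dep 1, 29.1% were lower there than in each other embryo, and the median log2 difference from the mean of the other 5 was -0.03. Of 29 measured primitive endoderm genes, 8 were at 0 and 18 lowest in Dep 1, with a median of -1.62. Pth1r is the member among them, and Gata4, Sox17, Sox7, Amn, Aqp8, Foxq1 and Creb3l2 are the others at 0. Of 18 epiblast genes, 1 was at 0, Fgf4, and 10 were lowest, with a median of -0.67. Tdgf1, a Nodal coreceptor next to the member Als2cl on chromosome 9, had 17.0 in Dep 1 and 881 to 2402 elsewhere. Of 30 trophectoderm genes, 3 were at 0, 4 lowest and 12 highest in Dep 1, with a median of 0.43. Among these Krt18 had 47707 in Dep 1 against 13384 to 27125, and Gata3 10439 against 4311 to 8594. Those at 0 were Krt19, Hand1 and Bmp8b. Tfap2c, another trophectoderm marker, was lowest in Dep 1, with 2204 against 2252 to 3228.

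**Figure D4:**
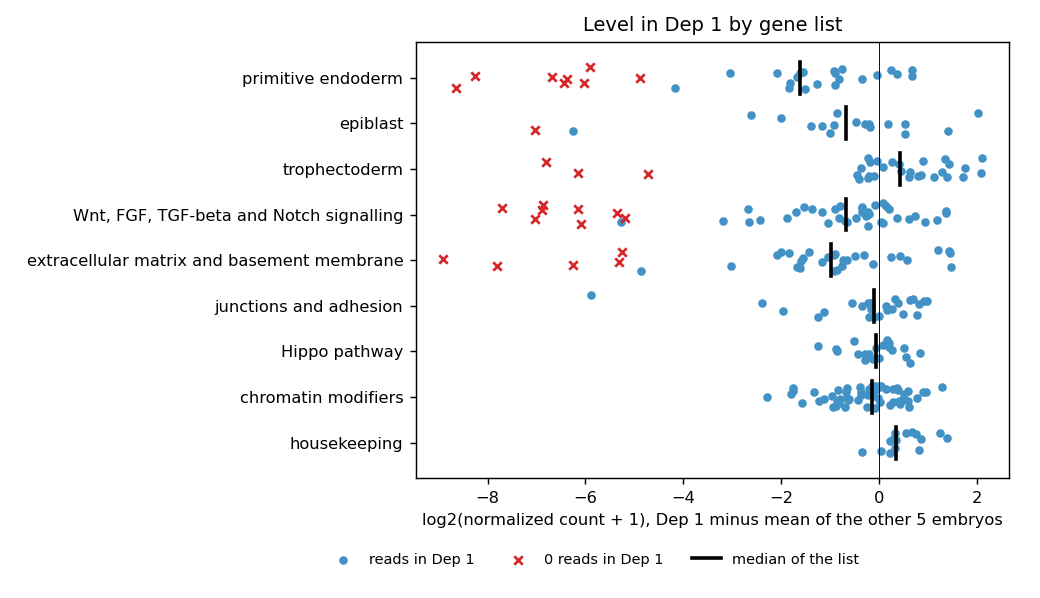
Difference between Dep 1 and the mean of the other 5 embryos on the log2(normalized count + 1) scale (x axis), 1 point per gene, in 9 gene lists. Crosses are genes with 0 reads in Dep 1 and black bars are medians. Of the 9 lists drawn, the median is lowest for primitive endoderm (-1.62) and highest for trophectoderm (0.43); some lists not drawn have lower medians, such as germ line and piRNA genes (-2.64).

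Pathway lists gave the other members. The lists were not matched for level, and zeros in Dep 1 fell with level. In Dep 1, 18.6% of genes with means from 50 to 100 were at 0, against 1.39% of genes with a mean of at least 100. Of 46 genes of Wnt, FGF, TGF-beta and Notch signalling, 8 were at 0 in Dep 1 and 23 lowest, with a median log2 difference of -0.67; the members are Fgf10, Smad3 and Spry1. Of 34 genes of extracellular matrix and basement membrane, 5 were at 0 and 23 lowest, with a median of -0.98 and Itga3 as the member. Of 47 genes of cilium and centrosome, 4 were at 0, Wdr35 among them. No gene was at 0 in Dep 1 among 27 of junctions and adhesion, 21 of the Hippo pathway, 57 chromatin modifiers or 15 housekeeping genes, of which 7 were highest in Dep 1. Of 14 germ line and piRNA genes, 4 were at 0 and 8 lowest, with a median of -2.64 and no member. None of the 6 among them with a mean of at least 100 was at 0. Of 12 interferon and RNA sensing genes 3 were at 0 (median -1.43), of 24 imprinted genes 1 (-0.88), of 6 oocyte genes 1 (-0.04), and of 23 p53 targets and apoptosis genes (-0.78) and 4 genes of zygotic genome activation (0.28) none. Few genes of other cell types were listed. Of blood and immune cells 3 were, none at 0, with a summed level of 903 in Dep 1 and 1218 to 1827 elsewhere and a median of -1.90. Of cumulus and granulosa cells 3 were, none at 0, with a sum of 1308 in Dep 1 and 911 to 1406 elsewhere and a median of -1.48. Of neural genes 3 were, with Nes and Tubb3 at 0, a sum of 46.1 in Dep 1 and 37.1 to 244 elsewhere and a median of -4.87. Thy1, the 1 fibroblast gene listed, was at 0 in Dep 1 and had 21.8 to 31.2 elsewhere. The part of these cell types in the zeros was not tested.

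Whether the members differed between the groups was asked without Dep 1, in Dep 2 and Dep 3 against the 3 Ctl embryos. No member passed the test: 0 of 113 had an adjusted p under 0.05, the smallest being 0.987 (limma, Benjamini-Hochberg over all genes). Over all 12149 genes 0% were called as well. At an unadjusted p under 0.05 were 9 members, 7 higher and 2 lower in Dep, which is 7.97% beside 3.9% of all genes (1.98% higher and 1.92% lower) and 4.13% of genes with a mean of at least 100. That count was 2 when the fit itself was limited to genes with a mean of at least 100. With all 6 embryos, which include the zeros that chose the members, it was 3. It was lower than 9 without Dep 3, which leaves Dep 2 alone, and higher than 9 with the replicate number as a block. The embryos of the groups did not overlap in 21 members (18.6%), 16 of them higher, against 19.4% of all genes, 9.47% higher and 9.9% lower. A higher mean log2 level in Dep was found for 63 members (55.8%), against 51.9% of all genes (48.1% were lower). The median log2 fold of the members was 0.09, and that of all genes 0.02. With the replicate number as a block, limma called 4 genes, Fdps, Acly, Txnip and Anxa3, and no member. In that fit 765 genes were at an unadjusted p under 0.05 in place of 474. It compares only Dep 2 with Ctl 2 and Dep 3 with Ctl 3, since Ctl 1 has no partner once Dep 1 is left out. Its counts rest on those pairs alone. edgeR on recovered reads called 0 genes and had 470 at that unadjusted level, and DESeq2 called 14, none of them a member.

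Dgat2 had the smallest unadjusted p of the members. It had 91.8 ± 102 normalized counts in Ctl (SD, n = 3) and 277 ± 32.7 in Dep 2 and 3 (SD, n = 2), a log2 fold of 2.16 ± 0.81 (SE; limma, adjusted p = 0.987). Among the others with higher values were Rcor2, with a log2 fold of 1.49 ± 0.62 (SE), Sdc1 with 1.23 ± 0.56, and Nrg2 with 2.36 ± 1.07. Hsd17b1, an enzyme of oestrogen synthesis, had 1.71 ± 0.75, and rested on Dep 2, at 482 normalized counts against 88.5 in Dep 3 and 53.8 to 79.3 in Ctl. Gstm7, a glutathione transferase, had 1.83 ± 0.83 and Rasa4, a Ras inhibitor with 2.50 normalized counts in Ctl 2, 2.69 ± 1.23. Lower values were found for Tspan7, a tetraspanin, at 160.3 ± 86.2 in Ctl and 45.9 ± 18.5 in Dep 2 and 3, with a log2 fold of -1.72 ± 0.69, and for ENSMUSG00000079738 at -1.58 ± 0.68. Pecam1, the tenth by p, had 1.32 ± 0.61. None of these genes passed (limma, adjusted p = 0.987 for each). The median SE of a member's log2 fold was 0.66, against 0.38 for genes with a mean of at least 100. These folds come from the fit without the replicate number as a block. With the block, Ctl 1 has no partner once Dep 1 is left out, so the folds are those of the fit without Ctl 1. In both, 10 of 47 named members had the opposite sign.

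**Figure D5:**
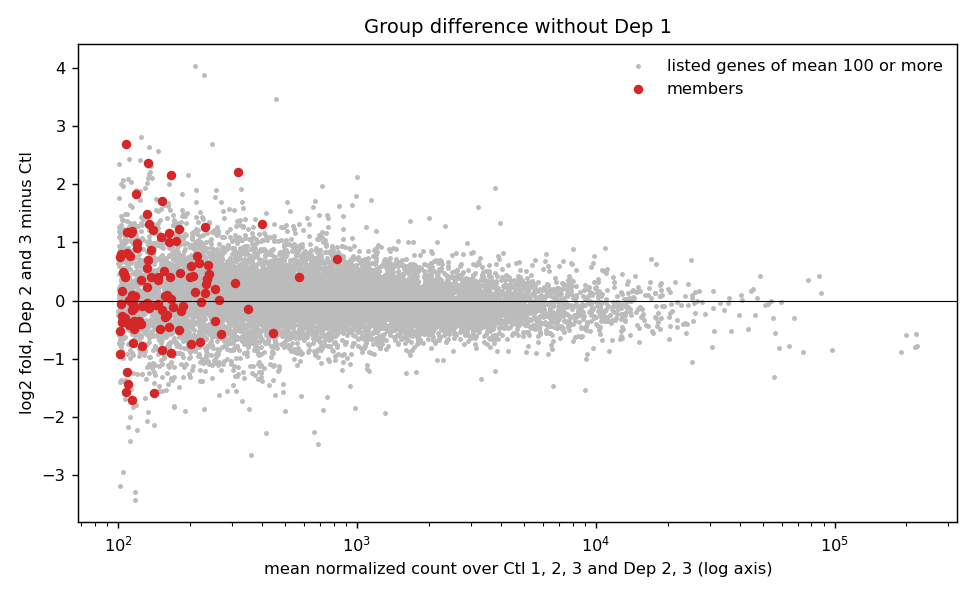
Log2 fold of Dep 2 and Dep 3 against the 3 Ctl embryos (y axis) by mean normalized count over these 5 embryos (x axis, log scale), 1 point per gene with a mean of at least 100. The 113 members, in red, run from -1.72 to 2.69 on both sides of 0, with a median of 0.09, and lie mostly at means below 200.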

How the data were processed

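RNA of 6 single blastocysts was copied with the SMART-Seq v4 kit, which does not mark strand, per the labels' protocols. HISAT2, Cufflinks 2.2.1 and mm10 are named, with no role, in the submitters' processing notes. Which program counted the reads, and on which annotation, is not given in the sources used here. Per the file headers, the authors deposited a signal value for each gene in each library, which is a normalized count. Beside it the authors deposited a mean, a log2 fold change, its error, a score for their test and p-values, which were not used except for the lowest mean below. Dividing a library's values by its smallest step gave whole reads for 100% of them, within 0.01. For Dep 2 the step is 0.993, near 1. The lowest mean in the deposited table is 14.2, so depth here means reads in listed genes. Reads carry no described molecular identifier and are not independent molecules, so floors cover counting error only.

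GENCODE M21 (GRCm38) gave symbols, positions and exon lengths for 11829 identifiers, and 320 had no match. The members were taken by the rule in the report, and the members and gene lists were chosen with earlier results of these data known. The fit was limma 3.58.1 with a mean-variance trend on log2(normalized count + 1), over all 12149 genes in Ctl 1, 2 and 3 and Dep 2 and 3, with Benjamini-Hochberg adjustment and a threshold of 0.05. Dep 1 takes no part in it. Log2 folds on this scale understate changes of low genes. The fit was tested on simulated data. edgeR 4.0.16 and DESeq2 1.42.0 on recovered reads, other pseudocounts, 2 scalings, a minimum mean of 100, no trend, all 6 embryos, a replicate block and each embryo left out were alternatives. R was 4.3.3 and Python 3.11.15.

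Across genes, the deviations of Ctl and Dep embryos of the same number correlated at r = 0.133 (number 1), 0.151 (number 2) and 0.129 (number 3). All are over 0.1, the mark used for pairing by number on this check, which included Dep 1 and was not a test. The labels do not give a pairing. Without Dep 1, Ctl 1 has no partner, so a block by number compares the groups in numbers 2 and 3 only. The folds, SEs and p-values in the report come from the fit without the block. Of the blocked fit, the genes called and counts are given, and no fold of a member. A chi-square test of reads found no duplicated library. Named members are the 30 of highest mean, those on a gene list, the 10 of smallest unadjusted p and the 5 of lowest mean; others are examples of a role.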

Additional observations from a re-analysis of the deposited data

How the results depend on the processing

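No member was called in any setting tried. Over all genes the count of calls was 0 except with the replicate number as a block (4), DESeq2 on recovered reads (14) and without Dep 3 (1, Slc38a11), and leaving out 1 embryo gave 0 to 1. Genes at an unadjusted p under 0.05 numbered 474, 765 with the replicate block and 225 with all 6 embryos, and 340 to 780 with 1 embryo left out, the highest without Dep 3. Members at that level numbered 9, 12 with the replicate block, 2 with a minimum mean of 100, 3 with all 6 embryos, and 5 to 11 with 1 embryo left out, the lowest without Dep 3. The cause was not tested. The members' median log2 fold was 0.09, 0.11 to 0.25 with 1 embryo left out, and -2.31 with all 6 embryos, where it holds the zeros that chose the members. The replicate block leaves Ctl 1 without a partner, so its folds are those of the fit without Ctl 1. It changed no call of a member. Of 47 named members, 10 had the opposite sign with the block, 32 with all 6 embryos and 10 or fewer in each other setting.

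The number of members was 113, 336 with a minimum mean of 50 and 26 with 200. It was 141 with up to 1 read allowed in Dep 1, and 108 with at least 10 normalized counts in each of the other 5 embryos. The alternatives without an embryo leave 1 Dep or 2 Ctl embryos in places, and a lone embryo is assumed to vary like the others. With 5 embryos, the median SE of 0.66 limits the precision of a member's log2 fold.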
